A study of Mus musculus with 24 samples.

Results

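Skin from mice with graft-versus-host disease of the sclerodermatous kind (GVH-SSc) that had been given an isotype control antibody was compared with skin from syngeneically grafted mice at day 28. The 8 arrays compared are those titled as isotype or control skin at day 28, 4 in each group, of 24 arrays in the series. All were hybridised with biotin-labelled RNA from shaved dorsal scapular skin, snap frozen, of female RAG2-/- recipients. The GVH-SSc mice had received B10.D2 splenocytes by injection and the syngeneic mice Balb/c splenocytes, and the 2 groups are called isotype and syngeneic skin here. The titles name no antibody for the syngeneic mice, so the allogeneic graft and the injected antibody cannot be told apart in this comparison. Neither the recipients' background strain and age nor the antibody dose is given in the labels. Nothing states that the 4 arrays of a group are 4 animals, so the p-values rest on the spread between arrays alone. The day 14 arrays of the same treatments, 4 in each group, are used below to show where the day 28 difference is larger or smaller.

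In graft-versus-host disease donor T cells respond to antigens of the host. A RAG2-/- host cannot rearrange antigen receptor genes and so has no T or B cells of its own, but it keeps its natural killer cells, macrophages, granulocytes and the resident cells of the skin. Splenocytes hold mature T and B cells, so lymphocyte transcripts in either group can come from the graft. The sclerodermatous form of the disease is known for inflammatory infiltrates followed by dermal fibrosis and by loss of fat under the skin. Normal mouse skin consists of a thin epidermis with hair follicles and sebaceous glands, a dermis, a layer of fat and a sheet of striated muscle.

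Levels are log2(intensity + 16), and a change is the isotype mean minus the syngeneic mean on that scale, given ± SE with n = 4 arrays in each group. Values of single arrays are listed as replicates 1, 2, 3 and 4 of a group. A gene without signal reads close to 4, and genes below 5 are called dim here. The offset of 16 shrinks the change of a dim gene, so its fold change is understated. A gene was called when limma's two-sided p-value, adjusted by Benjamini-Hochberg over 18193 genes, was under 0.05, and "rose", "fell" and "changed" are used only of called genes. In whole skin, fewer cells of a type and less RNA in each cell cannot be told apart.

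The markers of skin were present on every array. The keratins Krt5, Krt14, Krt1 and Krt10, which form the filaments of basal and suprabasal keratinocytes, read between 13.68 and 16.20. Acta1 and Myh4, the actin and a fast myosin of striated muscle, read between 14.14 and 15.80, so the samples held muscle as well as skin. Rag1 and Rag2 read between 4.41 and 4.84 in both groups. Skin normally lacks both transcripts, so these values test nothing about the genotype. Of the markers of mature B cells, Ms4a1, Cd79a and Pax5 read between 4.30 and 4.92 on all 8 arrays, which is the level of genes without signal.

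Of 18193 genes, 2973 were called (16.3%), 1211 of them higher (6.66%) and 1762 lower (9.69%) in isotype skin. Isotype skin lay above syngeneic skin without overlap of the 4 against 4 arrays for 1472 genes (8.09%) and below it for 2211 (12.2%). Rises were the larger changes, with 130 called genes higher by 8-fold or more and 32 lower by as much. The split depended on scaling. With the array medians centred, 1642 genes were called higher and 1263 lower, so that 56.5% of the called genes were higher in place of 40.7%, and the median change of all genes moved from 0.00 to 0.15. Every count of list members below is to be read against 6.66% and 9.69%.

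The arrays also differed in tissue content. The mean level of 22 skeletal muscle genes read 14.18, 14.17, 13.37 and 14.17 in syngeneic skin and 12.18, 13.56, 13.22 and 12.48 in isotype skin, so 3 of 4 syngeneic arrays lay above every isotype array. The mean of 25 hair shaft genes read 7.07, 6.40, 10.95 and 10.12 against 7.34, 5.08, 4.98 and 5.07, high in syngeneic replicates 3 and 4. The ratio of the 3' to the 5' Gapdh control probe sets, a measure of RNA integrity, was 2.51 ± 1.53 (SD) on the log2 scale in isotype and 2.31 ± 1.33 (SD) in syngeneic skin (difference 0.19, exact two-sided permutation p = 0.8, smallest possible 0.0286). A covariate that itself differs between the groups takes up part of the group difference by construction. With the muscle mean as a covariate 1155 genes were called, and with the hair mean 3026. Which named genes were no longer called with the muscle covariate is given with each group.

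**Figure D1:**
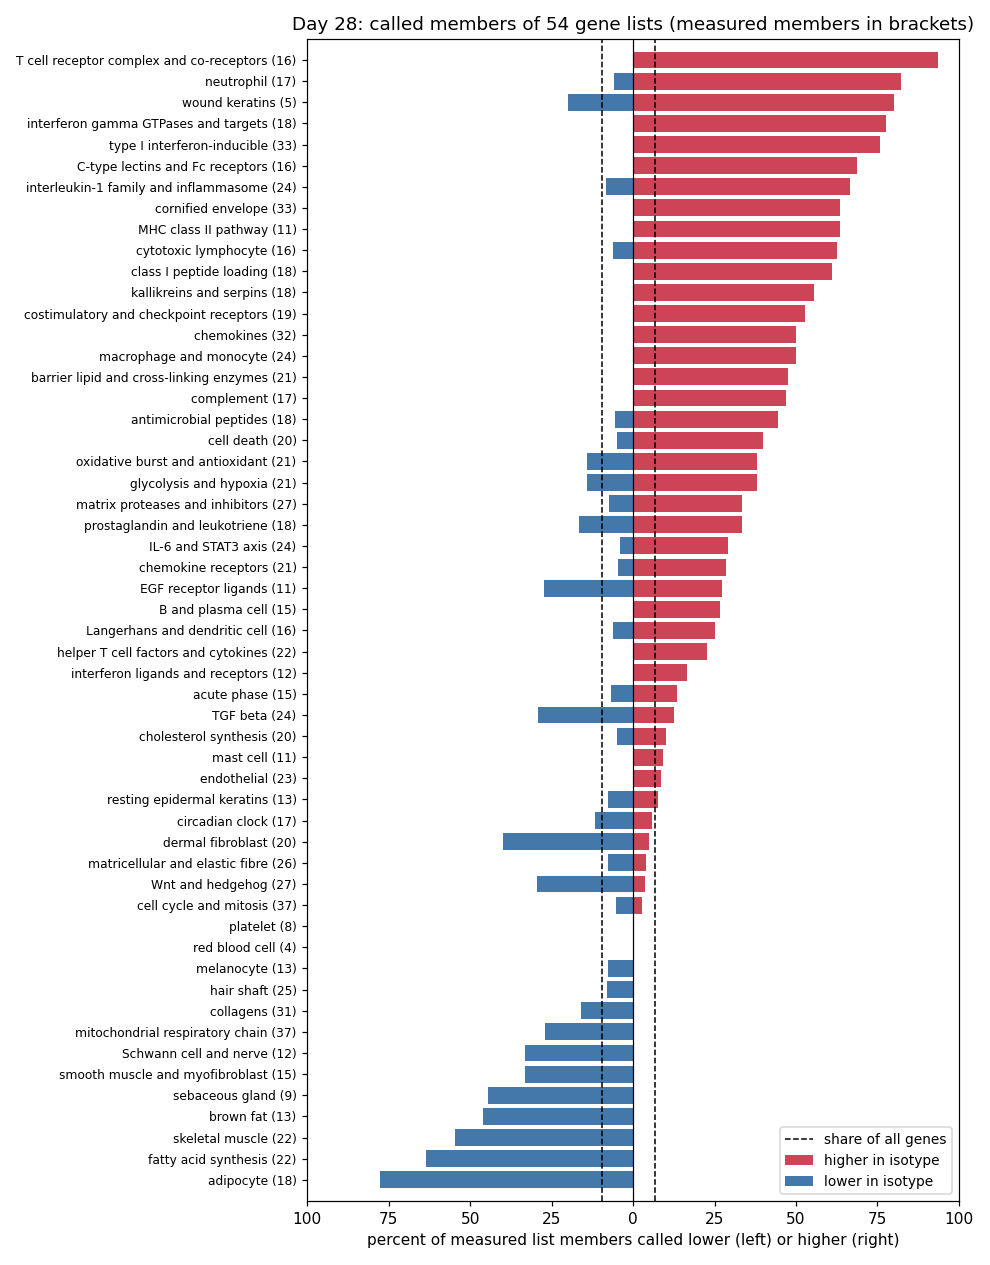
Percent of the measured members of each gene list called higher (right) or lower (left) in isotype than in syngeneic skin at day 28, with the number measured beside each name and dashed lines at 6.66% and 9.69% for all genes. T cell receptor, neutrophil, wound keratin and interferon lists reach furthest to the right and adipocyte, fatty acid and skeletal muscle lists furthest to the left.

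The 4 largest rises among called genes without overlap were of epidermal genes, Krt6b, Sprr1b, Lce3f and Krt16. Keratins 6, 16 and 17 are made by keratinocytes of wounded or hyperproliferating epidermis, and 4 of the 5 genes of the wound keratin list rose. Krt6b read 9.90, 4.71, 7.90 and 6.46 in syngeneic skin and 16.05, 15.57, 15.58 and 16 in isotype skin. Every isotype array stood above every syngeneic array, and the change was 8.56 ± 1.69 (adjusted p = 0.00165). Krt16, the partner of keratin 6 in these filaments, read 8.69, 6.86, 8.02 and 7.08 in syngeneic skin and 16.12, 15.25, 14.93 and 15.72 in isotype skin. Its rise of 7.84 ± 0.95 (adjusted p = 2.75e-05) had one of the smaller errors among the large rises. Krt6a, already well expressed in syngeneic skin at 11.34 ± 0.27 (SD), reached 14.92 ± 0.34 (SD), a change of 3.58 ± 0.58 (adjusted p = 0.000335). The member that fell was Krt75, a keratin of the hair follicle's companion layer (change -3.04 ± 0.65). Krt6b was not called with the muscle covariate.

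The keratins of resting epidermis mostly did not follow. Of 13 measured, Krt14 alone rose, by 1.09 ± 0.18 (adjusted p = 0.000413), and Krt15 alone fell. Krt15, a keratin of the basal layer and of the follicle bulge where stem cells reside, read 14.41, 14.59, 14.08 and 14.48 in syngeneic skin and 11.65, 12.57, 12.99 and 11.59 in isotype skin. All 4 isotype arrays lay below all 4 syngeneic arrays, and it fell (change -2.19 ± 0.47, adjusted p = 0.003), a call not made with the muscle covariate. Krt5, Krt1 and Krt10 were not called, with changes of 0.26 ± 0.13, 0.96 ± 0.39 and -0.13 ± 0.33.

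The cornified envelope, the cross-linked protein shell that keratinocytes build as they die at the skin surface, held the broadest epidermal change. Of 33 measured genes 21 rose and 0 fell, and their median change was 1.69 where the median of all genes was 0.00. Sprr1b, a small proline-rich cross-bridging protein, read 7.19, 4.78, 7.28 and 5.80 in syngeneic skin and 15.18, 14.03, 14.09 and 15.37 in isotype skin. Syngeneic arrays spread widely while the isotype arrays lay close together far above them, a change of 8.41 ± 1.35 (adjusted p = 0.000334). Sprr2d read 4.81, 4.36, 5.52 and 4.60 in syngeneic skin and 13.72, 11.39, 11.71 and 13.45 in isotype skin, close to no signal in the first group and strong throughout the second. Its change was 7.75 ± 1.04 (adjusted p = 7.47e-05), and Sprr2f, Sprr2h and Sprr2i of the same gene cluster rose by 6.76 ± 1.09, 6.32 ± 1.19 and 3.79 ± 0.50. The late cornified envelope genes split by subgroup. The 4 measured Lce3 genes rose most, with Lce3f at 8.21 ± 1.35, Lce3a at 6.63 ± 0.83, Lce3c at 6.47 ± 0.87 and Lce3b at 4.09 ± 0.54. Called Lce1 genes had smaller changes, such as 1.25 ± 0.10 for Lce1g and 2.46 ± 0.33 for Lce1h. Rptn, the fused-type filament protein repetin, rose by 5.78 ± 0.61 and Ivl (involucrin) by 1.38 ± 0.23. Lor, the loricrin gene that supplies much of the normal envelope, was not called at -0.09 ± 0.39, nor was Ppl (periplakin) at -0.19 ± 0.47. Sprr2h was not called with the muscle covariate.

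Enzymes that cross-link the envelope and make the lipids between the cells rose in part, 10 of 21 with a median change of 1.18, and none fell. Tgm1, the transglutaminase of the cell membrane, rose by 1.97 ± 0.36 (adjusted p = 0.000886) and Tgm3, a later transglutaminase, by 3.50 ± 0.81. Casp14, which helps to process filaggrin, rose by 3.04 ± 0.59, and Asprv1, a protease that cleaves filaggrin, by 1.74 ± 0.28. The lipoxygenases Alox12b and Aloxe3, which oxidise barrier ceramides, were not called at 0.63 ± 0.40 and 0.37 ± 0.28. The count fell to 5 with the muscle covariate, where Tgm3 and Casp14 were not called, and to 6 without isotype replicate 4.

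Kallikreins are serine proteases that loosen the outermost cells, and serpins are protease inhibitors of the same layer. Of 18 measured 10 rose and none fell. Klk13 read 4.87, 4.67, 5.73 and 5.46 in syngeneic skin and 12.72, 11.25, 11.40 and 12.93 in isotype skin. The groups were far apart and the change was 6.89 ± 1.18 (adjusted p = 0.000535). Klk6 rose by 6.47 ± 0.98, Klk9 by 4.11 ± 0.42 and Klk7 by 2.05 ± 0.33. Among the inhibitors Serpinb3a rose by 3.65 ± 0.52 and Serpinb12 by 3.52 ± 0.35. Spink5, the inhibitor whose loss causes Netherton syndrome, was not called at 0.32 ± 0.33.

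Antimicrobial proteins gave 8 rises and 1 fall of 18. Slpi, a secreted inhibitor of neutrophil elastase, read 5.01, 5.03, 5.05 and 5.74 in syngeneic skin and 10.27, 10.05, 10.78 and 11.96 in isotype skin, a change of 5.56 ± 0.66 (adjusted p = 2.51e-05) with isotype replicate 4 the highest. Wfdc12, a related whey acidic protein, rose by 4.12 ± 0.77. Lcn2, which binds bacterial iron carriers, had isotype values above all syngeneic ones but a wide spread, and was not called at 3.55 ± 1.22. Lcn2 was called higher in 6 other settings, the fit of 8 arrays alone among them. Defb4, a beta-defensin, read 4.51 to 4.57 on all 8 arrays.

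Growth factors that bind the EGF receptor moved in opposite directions. Hbegf read 5.49, 5.49, 5.49 and 5.50 in syngeneic skin and 9.44, 7.18, 8.41 and 10.12 in isotype skin, flat in the first group and clearly raised in the second. It rose by 3.29 ± 0.56 (adjusted p = 0.000499), Ereg (epiregulin) by 2.21 ± 0.36 and Epgn (epigen) by 2.70 ± 0.69. Egf itself fell (change -1.41 ± 0.35), as did the receptor gene Egfr (change -1.02 ± 0.16). Epgn and Egf were not called with the muscle covariate, nor Egf in a fit of the 8 arrays alone, nor Epgn without the arrays of high Gapdh ratio.

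The promoters of some envelope and protease genes carry the letters of the AP-1 site, the sequence bound by Fos and Jun dimers. Of 29 cornified envelope genes with a promoter in the RefSeq table (GRCm38.p6), 11 (37.9%) held TGANTCA on either strand in the 250 bases before the start, against 6.7% of all 14452 genes with a promoter, 10.2% of those called higher and 5.77% of those called lower. The same letters lay in the promoters of 7 of 24 type I interferon-inducible genes (29.2%), 2 of 11 interferon gamma list genes (18.2%) and 4 of 23 chemokine genes (17.4%), so they are not particular to the envelope genes. The Sprr genes are a tandem family, so their promoters are not separate observations. The 3 below were chosen after their values were seen, because Sprr1b, Sprr2d and Mmp13 are among the largest rises. Capitals mark the match.
Sprr1b chr3:92438780-92439029, minus strand: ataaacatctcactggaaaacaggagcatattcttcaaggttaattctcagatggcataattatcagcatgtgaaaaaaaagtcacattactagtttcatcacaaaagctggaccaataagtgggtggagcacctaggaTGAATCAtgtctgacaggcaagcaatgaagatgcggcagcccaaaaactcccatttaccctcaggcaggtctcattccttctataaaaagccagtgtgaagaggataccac
Sprr2d chr3:92338890-92339139, plus strand: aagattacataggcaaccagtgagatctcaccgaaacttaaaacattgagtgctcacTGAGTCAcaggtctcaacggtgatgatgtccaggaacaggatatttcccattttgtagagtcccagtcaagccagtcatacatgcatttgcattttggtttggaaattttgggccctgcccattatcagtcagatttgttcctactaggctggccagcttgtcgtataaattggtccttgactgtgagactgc
Mmp13 chr9:7272264-7272513, plus strand: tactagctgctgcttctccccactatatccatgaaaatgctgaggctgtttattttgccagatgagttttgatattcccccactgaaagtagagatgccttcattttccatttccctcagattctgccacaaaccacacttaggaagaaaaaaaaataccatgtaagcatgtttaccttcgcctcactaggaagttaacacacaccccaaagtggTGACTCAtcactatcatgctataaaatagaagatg
A match of letters is a description of the sequence and shows no binding.

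Most interferon-inducible genes rose. Interferon gamma, made by activated T cells and natural killer cells, induces guanylate-binding proteins and immunity-related GTPases that attack pathogens inside cells. Of 18 such genes and targets 14 rose and 0 fell, and the median was 3.12. Igtp, one of the GTPases, read 8.74, 9.14, 9.08 and 9.05 in syngeneic skin and 12.94, 13.76, 13.76 and 13.06 in isotype skin. The groups were far apart with little spread in either, and the change was 4.38 ± 0.64 (adjusted p = 0.000165). Iigp1 rose by 4.24 ± 0.62, Gbp8 by 3.90 ± 0.83, Irgm1 by 3.43 ± 0.71 and Gbp2 by 3.36 ± 0.60. Irf1, the transcription factor that follows the interferon gamma receptor, rose by 2.50 ± 0.43 (adjusted p = 0.000593). Nos2, an inducible target in macrophages, stayed dim and was not called at 0.11 ± 0.07, and Ido1, which degrades tryptophan, had overlapping groups at 1.67 ± 0.75.

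Genes that type I interferon induces, many of which interferon gamma also induces, rose in 25 of 33 cases with no fall and a median change of 1.92. Oas3, which makes the 2',5'-oligoadenylate that activates RNase L, read 4.48, 4.39, 4.39 and 4.38 in syngeneic skin and 8.59, 8.53, 7.88 and 8.22 in isotype skin. It was dim on each syngeneic array and raised to a similar level on each isotype array, a change of 3.90 ± 0.61 (adjusted p = 0.000274). Zbp1, a sensor of Z-form nucleic acid, rose by 3.45 ± 0.52, Oas1a by 3.37 ± 0.49, Oasl2 by 3.12 ± 0.53 and Ifit1 by 2.83 ± 0.54. Irf7, which amplifies type I interferon transcription, rose by 2.15 ± 0.43. The members not called included Ifit3 at 0.64 ± 0.47 and Ifi27l2a at -0.76 ± 0.35, the last called lower without isotype replicate 3 (-1.05). With the muscle covariate 14 members were called higher and neither Ifit1 nor Irf7 was among them.

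The ligands themselves divided. Ifng read 4.53, 4.54, 4.62 and 4.51 in syngeneic skin and 7.25, 7.52, 7.54 and 7.57 in isotype skin, near the floor in syngeneic skin and almost the same on the 4 isotype arrays. It rose by 2.92 ± 0.44 (adjusted p = 2e-04). The type I genes Ifnb1, Ifna1 and Ifna4 read between 4.32 and 4.42 on all 8 arrays, and none was called. The receptor chains Ifnar1 and Ifnar2 were not called at 0.47 ± 0.29 and 0.56 ± 0.34, nor were Ifngr1 and Ifngr2 at 0.30 ± 0.42 and 0.11 ± 0.52. With the mean of all their probe sets Ifnar1 and Ifnar2 were called higher, at 0.56 ± 0.18 and 0.83 ± 0.23. Array weights also gave a call for both, at 0.77 ± 0.21 and 0.98 ± 0.22. In the list of 12 ligands and receptors, 2 rose.

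The interferon-stimulated response element, bound by interferon regulatory factors, was searched on both strands as GAAA, any 2 bases and GAAA again, in the same promoter windows. It lay in 8 of the 11 interferon gamma list members that had a promoter (72.7%) and in 10 of 24 type I members (41.7%), against 3.13% of all genes, 5.84% of those called higher and 1.99% of those called lower. Both lists were made of genes that interferons induce, so these shares describe the lists and test nothing about the arrays. The Gbp and Irgm genes are families, so their promoters are not separate observations. The 5 promoters below were chosen after their values were seen, to show GTPases of both families, an antiviral enzyme and a chemokine, and capitals mark the match, which in Irgm1 is a pair of overlapping matches and in Gbp2 lies on the opposite strand.
Igtp chr11:58199306-58199555, plus strand: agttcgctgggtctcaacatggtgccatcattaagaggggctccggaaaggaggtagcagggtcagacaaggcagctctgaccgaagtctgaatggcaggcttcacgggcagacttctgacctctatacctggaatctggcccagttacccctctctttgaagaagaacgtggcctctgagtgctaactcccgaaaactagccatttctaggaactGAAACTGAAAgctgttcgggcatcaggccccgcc
Irgm1 chr11:48871421-48871670, minus strand: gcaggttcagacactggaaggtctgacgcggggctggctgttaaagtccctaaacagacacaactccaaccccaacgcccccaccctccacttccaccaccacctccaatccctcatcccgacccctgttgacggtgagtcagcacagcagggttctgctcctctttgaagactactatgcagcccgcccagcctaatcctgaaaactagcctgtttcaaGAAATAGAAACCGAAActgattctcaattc
Gbp2 chr3:142620413-142620662, plus strand: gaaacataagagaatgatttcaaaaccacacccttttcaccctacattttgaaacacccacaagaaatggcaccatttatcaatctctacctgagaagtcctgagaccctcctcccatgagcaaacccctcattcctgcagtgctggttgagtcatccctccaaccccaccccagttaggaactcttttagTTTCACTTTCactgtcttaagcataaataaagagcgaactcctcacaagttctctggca
Oas3 chr5:120777660-120777909, minus strand: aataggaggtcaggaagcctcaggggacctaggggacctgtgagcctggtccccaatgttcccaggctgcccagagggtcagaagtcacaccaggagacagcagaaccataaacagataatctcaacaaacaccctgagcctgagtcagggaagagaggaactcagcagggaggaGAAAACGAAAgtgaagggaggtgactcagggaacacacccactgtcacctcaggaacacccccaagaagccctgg
Cxcl10 chr5:92348890-92349139, minus strand: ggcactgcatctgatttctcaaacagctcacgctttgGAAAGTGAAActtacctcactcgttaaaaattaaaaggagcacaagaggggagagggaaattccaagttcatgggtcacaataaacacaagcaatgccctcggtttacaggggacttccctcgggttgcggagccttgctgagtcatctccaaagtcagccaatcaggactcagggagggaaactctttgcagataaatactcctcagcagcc
Counted back from the start, the matches begin at -34 in Igtp, -30 and -24 in Irgm1, -59 in Gbp2, -75 in Oas3 and -213 in Cxcl10, so 4 of the 5 lie close to the start.

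Antigen presentation rose with the interferon genes. Class I molecules show peptides from inside the cell to CD8 T cells, and 11 of 18 genes that make and load those peptides rose with no fall. Psmb8, a catalytic subunit of the immunoproteasome, read 10.30, 10.87, 10.21 and 10.40 in syngeneic skin and 12.54, 12.75, 12.95 and 12.49 in isotype skin, without overlap and with a change of 2.24 ± 0.38 (adjusted p = 0.000552). The other inducible subunits Psmb9 and Psmb10 rose by 2.00 ± 0.36 and 2.22 ± 0.33, and the peptide transporter genes Tap1 and Tap2 by 1.73 ± 0.29 and 1.75 ± 0.30. The standard proteasome subunits that they replace, Psmb5, Psmb6 and Psmb7, were not called, at 0.31 ± 0.12, 0.12 ± 0.12 and -0.15 ± 0.28. B2m, the light chain of class I, was high in both groups and not called at 0.51 ± 0.25. Leaving out isotype replicate 1 gave a call for B2m (0.73), and leaving out isotype replicate 3 or syngeneic replicate 4 for Psmb5 (0.41 and 0.42). Of 11 class II genes, which serve CD4 T cells, 7 rose with a median change of 0.97. Ctss, the protease that trims the invariant chain, rose by 2.98 ± 0.33, H2-Ab1 by 1.37 ± 0.26 and H2-Eb1 by 1.30 ± 0.34. Without the arrays that had a high hair mean, 3 class II genes were called, and H2-Eb1 was not.

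**Figure D2:**
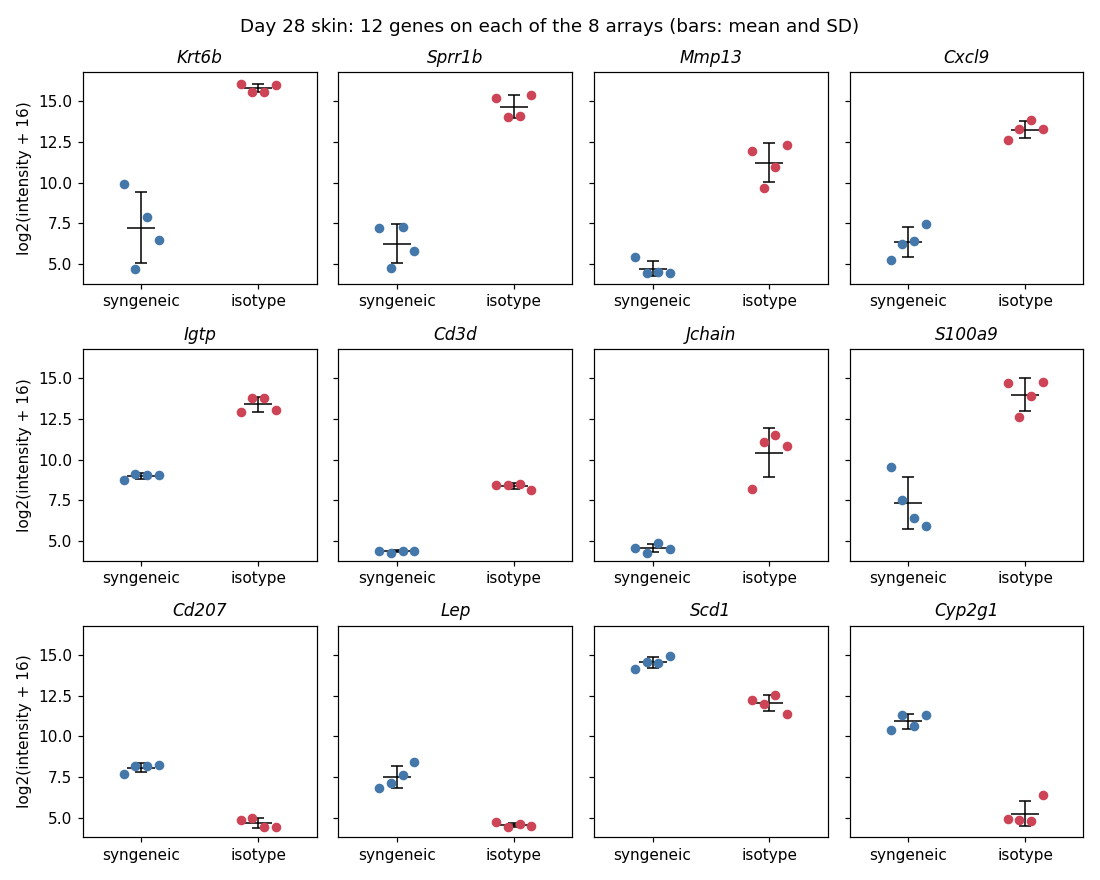
Levels, log2(intensity + 16), of 12 genes on each day 28 array, points for the 4 syngeneic and 4 isotype arrays, with bars for the group mean and its SD. The groups do not overlap for any of the 12, and Cd207, Lep, Scd1 and Cyp2g1 are those lower in isotype skin.

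T cell transcripts were raised throughout isotype skin. Of 16 genes of the receptor complex and its co-receptors 15 rose. Cd3d, a chain of the CD3 signalling complex, read 4.40, 4.26, 4.40 and 4.40 in syngeneic skin and 8.41, 8.45, 8.51 and 8.13 in isotype skin. The syngeneic arrays were at the floor and the isotype arrays close to one another, a change of 4.01 ± 0.23 (adjusted p = 3.39e-09). Cd4, the co-receptor of helper cells, read 4.42, 4.45, 4.51 and 4.41 in syngeneic skin and 7.85, 7.62, 7.46 and 6.26 in isotype skin, and rose by 2.85 ± 0.41. Cd8a, the co-receptor of cytotoxic cells, rose by 2.49 ± 0.27 and Cd8b1 by 1.17 ± 0.23. Lat, the adaptor below the receptor, rose by 3.21 ± 0.38 and Cd2 by 3.03 ± 0.35. The change of this list at day 14 was of the same order, with 16 of 16 called higher.

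Cytotoxic lymphocyte genes rose in 10 of 16 cases and fell in 1. Nkg7, a protein of cytotoxic granules, read 4.34, 4.63, 4.62 and 4.63 in syngeneic skin and 9.20, 9.18, 9.28 and 8.95 in isotype skin, a change of 4.60 ± 0.45 (adjusted p = 6.43e-06). Gzmb, the granule protease granzyme B, read 4.93, 4.46, 4.72 and 4.99 in syngeneic skin and 7.82, 8.84, 9.89 and 9.42 in isotype skin, with isotype replicate 1 the lowest of its group and still above every syngeneic array. It rose by 4.22 ± 0.67 (adjusted p = 0.000274) and Gzmk by 3.55 ± 0.31. Fasl, the ligand of the death receptor Fas, rose by 0.90 ± 0.20. Ncr1, the receptor that marks natural killer cells, stayed at the floor with a change of 0.00 ± 0.11. Adding the muscle covariate left 5 members called higher, and Fasl was not.

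Costimulatory and checkpoint receptors gave 10 rises of 19. Icos, a costimulator of activated T cells, read 4.55, 4.92, 4.93 and 4.91 in syngeneic skin and 9.20, 7.94, 7.76 and 7.44 in isotype skin, a change of 3.26 ± 0.45 (adjusted p = 9.36e-05). Tnfrsf9 (4-1BB) rose by 2.35 ± 0.50, Pdcd1 (PD-1) by 1.34 ± 0.24 and its ligand Cd274 by 3.14 ± 0.69. Ctla4 was not called at 0.06 ± 0.18. Under the muscle covariate 2 members were called higher, and Cd274, Pdcd1 and Tnfrsf9 were not. Of 22 helper T cell factors and cytokines 13 were dim in both groups and 5 rose, among them Tbx21, the factor of type 1 helper cells, by 1.40 ± 0.35, Tnf by 2.13 ± 0.32 and Ltb (lymphotoxin beta) by 2.84 ± 0.41. The cytokines of type 2 and type 17 cells, Il4, Il13 and Il17a, read between 4.37 and 5.04, and Foxp3, the factor of regulatory T cells, was not called at 0.12 ± 0.07. Tbx21 was not called with the muscle covariate, nor without the arrays of high hair mean or high Gapdh ratio.

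Of 15 B and plasma cell genes 4 rose, among them Ighm, Jchain and Mzb1, and markers of mature B cells were not called. Jchain, the chain that joins IgM and IgA into polymers, read 4.55, 4.27, 4.86 and 4.52 in syngeneic skin and 8.21, 11.10, 11.51 and 10.84 in isotype skin. Syngeneic arrays were at the floor and isotype arrays far above, replicate 1 being the lowest, and the change was 5.86 ± 0.59 (adjusted p = 8.38e-06). Ighm, the heavy chain of IgM, rose by 2.86 ± 0.59 and Mzb1, a chaperone of plasma cells, by 1.22 ± 0.24, the last not called in the fit of 8 arrays alone. Ighg3, an IgG heavy chain, read 5.18, 5.27, 5.20 and 5.16 in syngeneic skin and 7.96, 8.86, 7.26 and 9.05 in isotype skin and rose by 3.08 ± 0.36 (adjusted p = 2.3e-05). Ms4a1, Cd79a and Pax5, as given above, stayed at the floor. The plasma cell genes Xbp1, Prdm1, Sdc1, Tnfrsf17 and Derl3 were not called either, with changes of -0.09 ± 0.10, 0.42 ± 0.36, 0.25 ± 0.19, -0.05 ± 0.10 and 0.16 ± 0.07.

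Myeloid cells were represented by several gene groups. Of 24 macrophage and monocyte genes 12 rose and 0 fell, and the median was 1.18. Chil3, a chitinase-like protein of alternatively activated macrophages and neutrophils, read 4.70, 4.39, 4.36 and 4.34 in syngeneic skin and 6.91, 9.57, 12.08 and 13.52 in isotype skin. It was at the floor in syngeneic skin and ran over more than 6 log2 units within isotype skin, so its change of 6.07 ± 1.36 (adjusted p = 0.00435) had a wide error, and it was not called with the muscle covariate. Cd68, a lysosomal protein of macrophages, read 7.81, 9.04, 7.80 and 9.16 in syngeneic skin and 9.86, 10.67, 10.76 and 10.16 in isotype skin and rose by 1.91 ± 0.37 (adjusted p = 0.00142). Cd14, which binds endotoxin, rose by 2.66 ± 0.55. Mrc1 and Retnla, both tied to alternative activation, were not called at 0.79 ± 0.59 and -1.50 ± 0.64. Cd163 and the planned macrophage marker Adgre1 were not called either, and 12 of the 24 genes were not called.

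C-type lectins that sense microbial sugars and the Fc receptors that bind antibody rose in 11 of 16 cases with no fall and a median of 2.33. Clec4d read 4.92, 4.62, 4.67 and 4.56 in syngeneic skin and 10.39, 9.42, 9.76 and 10.89 in isotype skin, without overlap by a wide margin, a change of 5.42 ± 0.65 (adjusted p = 2.56e-05). Clec4n (Dectin-2) rose by 4.40 ± 0.57, Clec4e (Mincle) by 3.55 ± 0.43 and Clec7a (Dectin-1) by 3.55 ± 0.59. Fcgr4, an activating receptor for IgG, read 4.36, 4.42, 4.39 and 4.36 in syngeneic skin and 9.24, 8.93, 9.34 and 8.93 in isotype skin and rose by 4.73 ± 0.71 (adjusted p = 0.000194).

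Genes of the neutrophil list rose in 14 of 17 cases and fell in 1, with a median of 2.58. S100a9, a subunit of calprotectin, read 9.54, 7.51, 6.41 and 5.92 in syngeneic skin and 14.71, 12.58, 13.89 and 14.74 in isotype skin, a change of 6.63 ± 1.06 (adjusted p = 0.000302). Stfa3 and Stfa2l1, stefins that inhibit cysteine proteases, rose by 7.76 ± 1.0 and 6.5 ± 0.76, and neither had overlapping groups. S100a8, S100a9 and the stefins are also made by activated keratinocytes, so these genes do not mark neutrophils alone. Other members are closer to the cell type. Fpr2, a formyl peptide receptor, rose by 4.81 ± 0.62, Ngp, a granule protein, by 4.91 ± 0.85, and Cxcr2, the neutrophil's main chemokine receptor, read 5.07, 5.07, 5.08 and 5.05 in syngeneic skin and 6.13, 6.06, 6.89 and 5.96 in isotype skin and rose by 1.20 ± 0.19 (adjusted p = 0.000273). Il1r2, a decoy receptor for interleukin-1, fell (change -1.41 ± 0.35). With the muscle covariate 8 members were called higher, and neither S100a8 nor Il1r2 was called. Il1r2 was also not called without the arrays of high Gapdh ratio.

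Of 16 Langerhans and dendritic cell genes 4 rose (Itgax, Bst2, Ccl22 and Ly75) and 1 fell. The gene that fell was a marker of Langerhans cells, the dendritic cells of the epidermis. Cd207 (langerin) read 7.70, 8.18, 8.21 and 8.24 in syngeneic skin and 4.88, 5.01, 4.46 and 4.44 in isotype skin. All 4 isotype arrays lay at or near the dim range and below all 4 syngeneic arrays, and it fell (change -3.39 ± 0.65, adjusted p = 0.00129). Epcam, which Langerhans cells share with follicle cells, was not called at -0.08 ± 0.29, while Itgax (CD11c), an integrin of dendritic cells and some macrophages, rose by 2.46 ± 0.47. Cd207 was not called with the muscle covariate. No mast cell protease was called, and the members differed in direction. Cma1 read 9.55, 10.21, 10.36 and 9.65 in syngeneic skin and 7.91, 10, 10 and 7.69 in isotype skin, with isotype replicates 1 and 4 low and replicates 2 and 3 within the syngeneic range, and was not called at -1.04 ± 0.56. Mcpt4 and Cpa3 had the same 2 low arrays and were not called at -1.53 ± 0.64 and -1.20 ± 0.70, while the tryptase genes Tpsab1 and Tpsb2 stood at 2.41 ± 0.89 and -0.27 ± 0.53. Mcpt4 was called lower without isotype replicate 3 (-2.03) and Tpsab1 higher without isotype replicate 1 (3.09). The single mast cell list gene that rose was Hdc, the histamine-forming enzyme that neutrophils also carry, by 3.39 ± 0.61, a call not made with the muscle covariate.

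Chemokines, the proteins that direct leukocytes into tissue, rose in 16 of 32 cases with no fall and a median of 1.73. The 3 ligands of CXCR3, the receptor on type 1 T cells, rose together. Cxcl9 read 5.24, 6.23, 6.44 and 7.48 in syngeneic skin and 12.62, 13.28, 13.83 and 13.31 in isotype skin, a change of 6.91 ± 0.90 (adjusted p = 5.6e-05), with each isotype array far above the highest syngeneic one. Cxcl10 and Cxcl11 rose by 5.87 ± 0.70 and 6.21 ± 0.67. Ccl5, made by T cells among others, read 4.88, 4.55, 4.47 and 5.41 in syngeneic skin and 10.68, 11.57, 11.78 and 11.35 in isotype skin and rose by 6.52 ± 0.63 (adjusted p = 5.6e-06). Of those that draw neutrophils, Cxcl2 rose by 5.50 ± 0.86, while Cxcl1 was not called at 2.41 ± 0.85 but was without isotype replicate 2 (2.75). Of those that draw monocytes, Ccl8 rose by 3.21 ± 0.42. Cxcl12, made by fibroblasts in normal skin, was not called at -0.35 ± 0.45, but with the mean of all its probe sets it was called lower, at -0.93 ± 0.18 (adjusted p = 0.00112 by limma). Among 21 receptors 6 rose and 1 fell, with Cxcr6, carried by tissue T cells, at 3.83 ± 0.25 (adjusted p = 2.46e-08). Cxcr3 itself was not called. With the muscle covariate, and also without the arrays that had a high hair mean, 10 chemokines were called higher.

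Interleukin-1 family and inflammasome genes rose in 16 of 24 cases and fell in 2. Il1b read 6.22, 6.26, 4.86 and 4.66 in syngeneic skin and 11.08, 8.99, 11.06 and 10.77 in isotype skin, without overlap, a change of 4.98 ± 0.73 (adjusted p = 0.000159). Interleukin-36 cytokines are made by keratinocytes, and their genes Il1f6 and Il1f9 rose by 3.77 ± 0.39 and 2.94 ± 0.62. The inhibitors Il1rn and Il18bp rose too, by 1.56 ± 0.40 and 2.62 ± 0.50, while Il33 and Il18, stored in resting epithelium, were not called at 1.28 ± 0.52 and 0.81 ± 0.32, though Il18 was without isotype replicate 1 (1.22). Il33 was called higher in the fit of 8 arrays alone and with array weights. Neither inhibitor was called with the muscle covariate, where 8 members of the list were called higher, nor Il1rn without the arrays of high hair mean. The interleukin-6 group gave 7 rises and 1 fall of 24, and 1 rise with the muscle covariate. Il6 read 4.39, 4.50, 4.51 and 4.38 in syngeneic skin and 6.20, 4.49, 6.21 and 6.64 in isotype skin, with isotype replicate 2 in the syngeneic range, and was not called at 1.44 ± 0.82. Bcl3, a nuclear IκB protein, rose by 2.51 ± 0.38.

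Complement genes rose in 8 of 17 cases with no fall. Cfb, factor B of the alternative pathway, read 7.83, 8.73, 7.31 and 8.38 in syngeneic skin and 9.89, 10.53, 10.91 and 9.70 in isotype skin and rose by 2.20 ± 0.45 (adjusted p = 0.00232). C3ar1, a receptor for the fragment of C3, rose by 2.91 ± 0.49 and C1qb, of the recognition molecule C1q, by 1.54 ± 0.23. In the fit of 8 arrays alone 5 members were called higher. Of 15 acute phase genes 2 rose and 1 fell at day 28, against 9 rises at day 14. Saa3, the serum amyloid A made locally in inflamed tissue, read 8.82, 5.43, 5.57 and 6.13 in syngeneic skin and 14.16, 13.80, 13.56 and 13.85 in isotype skin and rose by 7.36 ± 0.77 (adjusted p = 8.59e-06), whereas Saa1, made mainly by liver, was not called at 1.81 ± 1.0. Saa1 was called higher in the fit of 8 arrays alone.

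**Figure D3:**
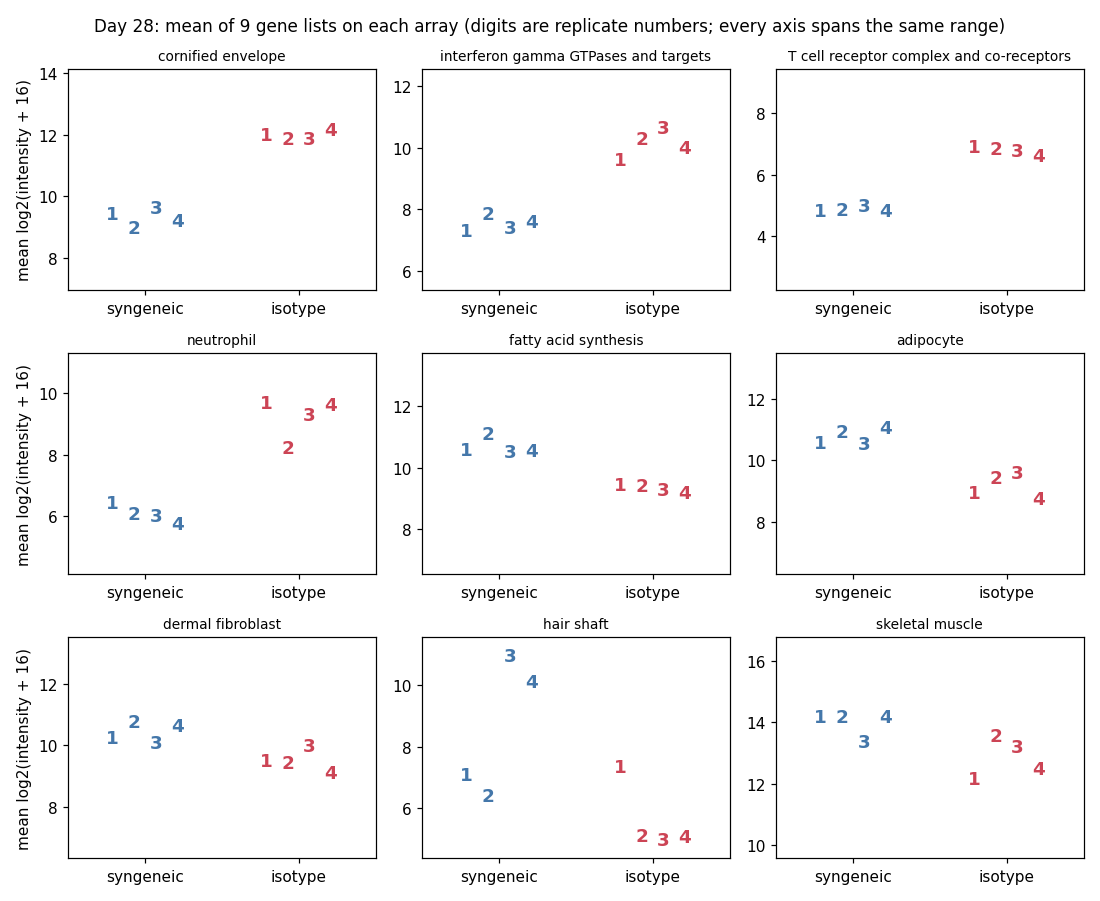
Mean log2(intensity + 16) over the measured members of 9 gene lists on each day 28 array, with digits giving the replicate number. Syngeneic replicates 3 and 4 are highest in the hair shaft panel, isotype replicates 1 and 4 are lowest in the skeletal muscle panel, and the T cell receptor panel has the groups well apart.

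Among the hair shaft genes, keratins of the growing follicle, 2 of 25 fell and none rose, although the median change was -3.08. Krt71, a keratin of the inner root sheath, read 9.87, 8.97, 13.17 and 13.37 in syngeneic skin and 9.73, 4.45, 4.45 and 4.45 in isotype skin. Syngeneic replicates 3 and 4 were highest, isotype replicate 1 matched syngeneic replicate 1, and the other 3 isotype arrays were at the floor, so the groups overlapped and it was not called at -5.58 ± 1.92. It was called without isotype replicate 1 (-6.89) and without syngeneic replicate 2 (-6.37). Krt31, a keratin of the shaft, had the same pattern and was not called at -3.55 ± 1.65. The wide spread within both groups held for most of the list. Hair follicles pass through growth and rest in cycles, and the stage of the sampled skin is not given in the labels.

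The Wnt and hedgehog signals that drive follicle growth fell in 8 of 27 cases and rose in 1. Ptch1, the hedgehog receptor and a target of the pathway, read 11.91, 11.37, 12.23 and 12.14 in syngeneic skin and 10.65, 10.69, 10.55 and 10.16 in isotype skin. The groups did not overlap, and it fell (change -1.40 ± 0.27, adjusted p = 0.00153). Gli1, the other common readout of the pathway, fell (change -1.64 ± 0.42), Bmp4 fell (change -1.84 ± 0.38) and Wnt5b fell (change -0.99 ± 0.23). Wnt10a, expressed in epidermis and follicle, rose by 0.96 ± 0.18. Shh, the hedgehog ligand, and Axin2, a Wnt target, were not called at -1.48 ± 0.92 and -0.84 ± 0.44. With the hair mean as a covariate 5 members were called lower and with the muscle mean 3, and Gli1 was called in neither. Bmp4 and Wnt10a were not called with the muscle mean.

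Sebaceous gland genes fell in 4 of 9 cases. Far2, which reduces fatty acids to the alcohols of sebum waxes, read 8.35, 8.15, 8.54 and 8.80 in syngeneic skin and 5.18, 4.77, 5.51 and 6.44 in isotype skin and fell (change -2.99 ± 0.71, adjusted p = 0.00647). Fa2h, which hydroxylates fatty acids, fell (change -3.53 ± 0.63). Krt79 and Plin2 were not called at -0.26 ± 0.69 and 0.09 ± 0.34. Far2 was not called with the muscle covariate, nor without the arrays of high hair mean or high Gapdh ratio. Of 13 melanocyte genes 1 fell, and Dct, Tyrp1 and Pmel, which make pigment, had overlapping groups at -0.90 ± 0.87, -0.30 ± 0.96 and -0.82 ± 1.02.

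Fat cell genes fell in 14 of 18 cases and none rose, with a median change of -1.53. Lep, the satiety hormone leptin, read 6.83, 7.13, 7.62 and 8.42 in syngeneic skin and 4.75, 4.45, 4.61 and 4.52 in isotype skin. Isotype arrays were all at the floor, syngeneic arrays all above it, and Lep fell (change -2.92 ± 0.47, adjusted p = 0.00035). Plin4, a coat protein of lipid droplets, read 12.10, 12.26, 11.38 and 11.33 in syngeneic skin and 10.15, 10.46, 10.07 and 9.82 in isotype skin and fell (change -1.64 ± 0.25, adjusted p = 0.000189). Lpl, the lipase that takes up fat from lipoproteins, read 14.16, 14.40, 14.69 and 14.65 in syngeneic skin and 12.35, 13.21, 13.37 and 12.38 in isotype skin and fell (change -1.65 ± 0.22, adjusted p = 5.97e-05). Npr3, the clearance receptor for natriuretic peptides, fell (change -4.13 ± 0.48), among the largest falls of any gene, and Retn (resistin) fell (change -2.13 ± 0.46). Pparg, the master regulator of fat cells, fell (change -2.0 ± 0.43). Cebpa, which fat cells share with keratinocytes, was not called at 0.06 ± 0.21, nor was Lipe, the hormone-sensitive lipase, at -0.59 ± 0.45. Retn and Pparg were not called with the muscle covariate, where 5 members were called lower, and 7 were in the fit of 8 arrays alone. At day 14 the list gave 2 falls. Of 13 brown fat genes 6 fell, among them Cidea, which enlarges lipid droplets and is also a gene of sebaceous glands, which fell (change -2.24 ± 0.50) and was not called in the fit of 8 arrays alone, while Ucp1, the defining uncoupling protein, stayed at the floor at 0.00 ± 0.01.

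Genes of fatty acid synthesis and of cholesterol synthesis gave different counts. Of 22 fatty acid genes 14 fell and none rose (median -1.27), while of 20 cholesterol genes 1 fell and 2 rose (median -0.04), and the difference between the lists was not tested. Both pathways start from acetyl-CoA and are regulated by proteins of the SREBP family. Scd1, the desaturase that makes oleate, read 14.13, 14.57, 14.52 and 14.93 in syngeneic skin and 12.22, 11.96, 12.57 and 11.40 in isotype skin. All isotype arrays were at least 1 log2 unit below the lowest syngeneic array, and it fell (change -2.50 ± 0.41, adjusted p = 0.000377). Elovl6, which lengthens palmitate, read 11.66, 11.87, 11.62 and 11.84 in syngeneic skin and 8.59, 9.38, 9.60 and 9.29 in isotype skin and fell (change -2.53 ± 0.54, adjusted p = 0.00309). Me1, the malic enzyme that supplies reducing power, fell (change -1.53 ± 0.34), Gpam, the first step of triglyceride assembly, fell (change -1.62 ± 0.28), and Mlxipl, the glucose-responsive factor ChREBP, fell (change -1.99 ± 0.40). Acly, which makes cytosolic acetyl-CoA, and Acaca, which commits it to fatty acids, were not called at -0.62 ± 0.32 and -1.08 ± 0.41. On the sterol side Hmgcs1, Sqle and Idi1 were not called at -0.55 ± 0.22, 0.75 ± 0.35 and 0.08 ± 0.27, and the member that fell was Insig1, which holds SREBP in the endoplasmic reticulum (change -1.53 ± 0.25). With the muscle covariate 5 fatty acid genes were called lower, and Elovl6, Me1 and Mlxipl were not. Me1 was also not called with the mean of all its probe sets. At day 14 there were 5 falls in the fatty acid list.

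**Figure D4:**
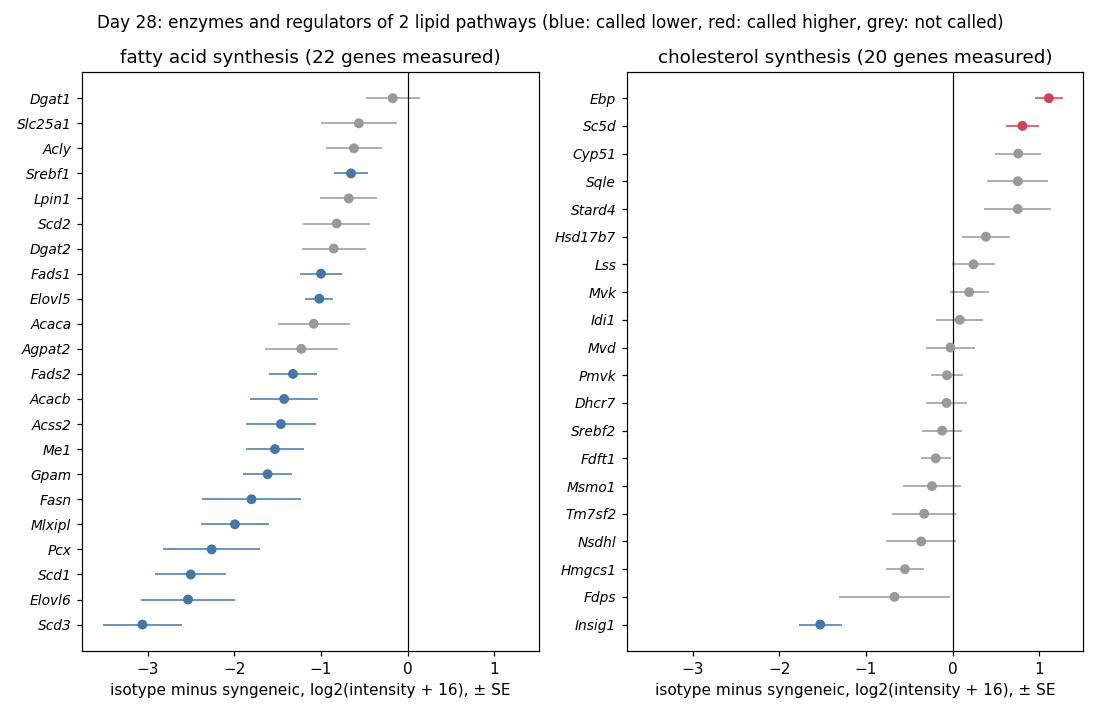
Change at day 28, isotype minus syngeneic on the log2(intensity + 16) scale, ± SE (n = 4 arrays in each group) of the measured fatty acid synthesis and cholesterol synthesis genes. Most of the first set lie below 0, with 14 of 22 called lower, and most of the second lie about 0, with 1 of 20 called lower.

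Skeletal muscle genes fell in 12 of 22 cases, with a median of -1.07. Myh4, the myosin of fast fibres, read 15.66, 15.80, 15.33 and 15.74 in syngeneic skin and 14.57, 15.22, 15.02 and 14.54 in isotype skin and fell (change -0.79 ± 0.16, adjusted p = 0.0022). It was not called with the mean of all its probe sets. Casq1, the calcium store of the sarcoplasmic reticulum, read 13.92, 13.95, 13.38 and 13.51 in syngeneic skin and 11.97, 12.01, 12.08 and 10.63 in isotype skin and fell (change -2.02 ± 0.48, adjusted p = 0.00673). Acta1, Myh2 and Mylpf had overlapping groups and were not called at -0.64 ± 0.27, -0.68 ± 0.40 and -1.27 ± 0.49. Without isotype replicate 2 Acta1 was called (-0.84), and without isotype replicate 3 Mylpf (-1.64). The count was 6 in the fit of 8 arrays alone, 6 without isotype replicate 4, and 0 with the list's own mean as a covariate, which removes it by construction. Of 37 subunits of the mitochondrial respiratory chain 10 fell and none rose, with a median of -0.41, and 3 fell with the array medians centred. Sdhb, a subunit of complex II, fell (change -0.74 ± 0.17), and was not called without the arrays of high hair mean. The muscle mean, given above, also differed between the groups, and its part in these falls was not tested. With it as a covariate, which takes up part of the group difference by construction, no respiratory chain gene was called.

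Glycolysis genes divided, with 8 rises and 3 falls of 21. Slc2a3, a glucose transporter of leukocytes, rose by 2.48 ± 0.42, while Ldhb, the lactate dehydrogenase of oxidative tissue, fell (change -2.07 ± 0.28). Aldoa and Pkm were not called at -0.69 ± 0.23 and 0.34 ± 0.27, though Aldoa was without isotype replicate 2 (-0.81) or syngeneic replicate 3 (-0.89). The muscle covariate left 1 member called higher.

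Matrix genes gave no rises in collagens and several in proteases. Of 31 collagen and collagen-processing genes none rose and 5 fell, and the 2 main fibrillar genes Col1a1 and Col1a2 were not called at -0.58 ± 0.78 and -0.69 ± 0.60. Col1a1 read 11.48, 12.52, 11.80 and 13.45 in syngeneic skin and 11.97, 12.19, 13.10 and 9.67 in isotype skin, with overlapping groups. Col3a1 was not called at -0.51 ± 0.45. Col15a1, of the basement membrane zone, fell (change -1.64 ± 0.28). The muscle covariate left 1 collagen gene called lower. Of 27 matrix proteases and inhibitors 9 rose and 2 fell. Mmp13, a collagenase, read 5.43, 4.48, 4.51 and 4.48 in syngeneic skin and 11.97, 9.68, 10.95 and 12.31 in isotype skin. The groups were apart by more than 2 log2 units at their closest, and Mmp13 rose by 6.5 ± 0.98 (adjusted p = 0.000194). Mmp12, the macrophage elastase, rose by 4.22 ± 0.75, Mmp9 by 3.14 ± 0.46, Adam8 by 3.33 ± 0.46 and Plaur, the urokinase receptor, by 2.52 ± 0.45. Timp1, an inhibitor of these enzymes, rose by 2.52 ± 0.67 and Timp2 fell (change -1.05 ± 0.20), and neither they nor Plaur were called with the muscle covariate, where 5 members were called higher. Timp1 was also not called without the arrays of high hair mean or high Gapdh ratio, nor Timp2 with the mean of all its probe sets. Mmp2, a gelatinase of fibroblasts, was not called at -0.02 ± 0.28.

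Among matricellular proteins and elastic fibres 1 of 26 rose and 2 fell. The riser was Tnc, tenascin C, a matrix protein of wounds, which read 6.83, 5.96, 7.87 and 8.57 in syngeneic skin and 11.25, 10.91, 12.37 and 11.63 in isotype skin and rose by 4.24 ± 0.96 (adjusted p = 0.00474), a call not made with the muscle covariate. Postn (periostin), Fn1 (fibronectin) and Ccn2 (connective tissue growth factor), all used as signs of fibrosis, were not called at -0.28 ± 0.71, -0.11 ± 0.44 and -0.19 ± 0.39. In the TGF-β list of 24 genes, the pathway best known for driving fibrosis, 3 rose and 7 fell. Tgfb1, the main ligand, rose by 1.34 ± 0.32 and Inhba, an activin subunit, by 1.04 ± 0.21, while the signal carrier Smad3 fell (change -0.80 ± 0.18). Tgfb1 was not called in the fit of 8 arrays alone or without the arrays of high hair mean, and Inhba not with the muscle covariate, where 1 member of the list was called. The receptor genes Tgfbr1 and Tgfbr2 were not called at -0.01 ± 0.33 and -0.46 ± 0.43.

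Dermal fibroblast genes fell in 8 of 20 cases and rose in 1, with a median of -0.88. Pdgfra, the receptor that marks fibroblasts, read 11.31, 11.69, 10.96 and 11.20 in syngeneic skin and 10.56, 10.09, 10.74 and 10.02 in isotype skin and fell (change -0.94 ± 0.20, adjusted p = 0.00277). Ogn, a small proteoglycan also called mimecan, read 10.46, 10.81, 11.07 and 12.07 in syngeneic skin and 6.66, 8.04, 8.97 and 7.78 in isotype skin and fell (change -3.24 ± 0.61, adjusted p = 0.00111). Prrx1, a transcription factor of dermal lineage, fell (change -1.27 ± 0.28) and Fap, a surface protease, fell (change -1.95 ± 0.29). Dcn and Lum, abundant proteoglycans of the dermis, were not called at -0.60 ± 0.41 and -1.83 ± 0.87, though Lum was without isotype replicate 3 (-2.65). Only 2 members were called lower with the muscle covariate, and Ogn and Prrx1 were not among them. Pdgfra was not called with the mean of all its probe sets. Of 15 smooth muscle and myofibroblast genes 5 fell, and the myofibroblast actin Acta2 was not called at -0.38 ± 0.24.

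Few endothelial genes were called, and the share called higher was near the 6.66% of all genes. Of 23 genes 2 rose and 0 fell. The risers were the adhesion molecules Vcam1, by 2.94 ± 0.46, and Icam1, by 1.74 ± 0.28. Vcam1 read 7.21, 7.58, 7.37 and 7.26 in syngeneic skin and 9.73, 10.70, 10.41 and 10.30 in isotype skin. Pecam1 and Cdh5, present in all endothelium, were not called at 0.39 ± 0.60 and -0.46 ± 0.28, nor were the selectins Sele and Selp at 0.22 ± 0.25 and 0.82 ± 0.58. Vcam1 and Icam1 are also carried by other cells, and the source was not tested.

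Of 37 cell cycle genes 1 rose (Cdkn1a) and 2 fell (Cdkn1b and Cdkn1c), all of them genes of cyclin-dependent kinase inhibitors. No marker of mitosis was called. The median was 0.76, and 32 of the 37 changes were positive. Isotype skin lay above syngeneic skin without overlap for 10 of the 37, against 8.09% of all genes. Top2a read 10.24, 9.80, 10.63 and 10.58 in syngeneic skin and 11.25, 10.96, 10.94 and 11.52 in isotype skin, higher on every isotype array by a margin that was not called at 0.86 ± 0.41, and Mki67 was not called at 0.58 ± 0.41. With the hair mean as a covariate 20 members were called, and without the arrays that had a high hair mean 5. Cell death genes rose in 8 of 20 cases. Mlkl, the executor of necroptosis and an interferon target, rose by 3.16 ± 0.58 and Bak1, which opens the mitochondrial membrane, by 1.65 ± 0.24. Mlkl was not called with the muscle covariate.

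The oxidase that makes superoxide in phagocytes rose, while the antioxidant genes divided. Cybb, its catalytic subunit, read 7.05, 7.95, 7.40 and 8.81 in syngeneic skin and 10.59, 11.63, 11.70 and 10.67 in isotype skin and rose by 3.35 ± 0.39 (adjusted p = 2.31e-05), Cyba by 2.60 ± 0.37 and Ncf1 by 2.50 ± 0.45. Cat (catalase) fell (change -1.27 ± 0.21), as did Gpx3 and Gpx4. Srxn1 rose, and Sod1, Sod2, Txnrd1 and Gclc were not called. Of 21 genes of both kinds 8 rose and 3 fell. Among 18 prostaglandin and leukotriene genes 6 rose and 3 fell. Ptgs2, the inducible cyclooxygenase, read 5.46, 5.38, 5.17 and 5.42 in syngeneic skin and 9.10, 8.0, 9.31 and 10.38 in isotype skin and rose by 3.84 ± 0.69 (adjusted p = 0.000793), while Pla2g7, which degrades platelet-activating factor, rose by 3.42 ± 0.66. Ptgs2 was not called with the muscle covariate.

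Nerve sheath genes fell in 4 of 12 cases, among them Mbp, the myelin basic protein, which fell (change -1.60 ± 0.42), and S100b, which fell (change -1.21 ± 0.23), and with the muscle covariate none was called. Of 17 clock genes 1 rose and 2 fell. By limma 0 of 4 red blood cell genes and 0 of 8 platelet genes were called, with 0 and 1 at an unadjusted p under 0.05.

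Genes outside these lists with large falls had varied roles. Cyp2g1, a cytochrome P450 of epithelia, read 10.40, 11.31, 10.65 and 11.29 in syngeneic skin and 4.91, 4.84, 4.83 and 6.40 in isotype skin. Isotype replicates 1, 2 and 3 were dim, replicate 4 stood above them and still below every syngeneic array, and it fell (change -5.67 ± 0.98, adjusted p = 0.000567), the deepest fall among called genes without overlap. Oxtr, the oxytocin receptor, read 10.27, 11.28, 9.74 and 8.01 in syngeneic skin and 5.27, 5.77, 5.22 and 5.24 in isotype skin and fell (change -4.45 ± 0.66, adjusted p = 0.000173). Pgr, the progesterone receptor, fell (change -3.95 ± 0.83), and Akr1c18, which inactivates progesterone, fell (change -4.07 ± 0.67). Abca5, a lipid transporter, fell (change -4.12 ± 0.68), Cbs, which makes cystathionine, fell (change -3.49 ± 0.60), and Ces1d, a carboxylesterase of fat and liver, fell (change -3.82 ± 0.59). Sncg, a synuclein abundant in fat, fell (change -3.56 ± 0.41). Pgr was not called with the muscle covariate. Krtap4-6, a keratin-associated protein of the hair shaft, read 7.68, 7.15, 11.21 and 10.96 in syngeneic skin and 6.17, 4.28, 4.26 and 4.28 in isotype skin and fell (change -4.50 ± 1.5, adjusted p = 0.0465), with syngeneic replicates 3 and 4 the highest. Of the 8 fits with 1 array left out it was called in the one without syngeneic replicate 2 alone, and in the other 7 the change ran from -5.03 without syngeneic replicate 1 to -3.85 without syngeneic replicate 3. Krtap4-6 was also not called with the muscle covariate, quantile normalization, an offset of 64 or the replicate block. The same held without the arrays of high hair mean or high Gapdh ratio.

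The difference between day 28 and day 14 was tested in the same fit. At day 14, 962 genes were called higher (5.29%) and 1510 lower (8.3%) in isotype skin, and 557 genes were called higher and 701 lower on both days. No array is shared between the days. The change itself differed between the days for 8 genes (0.044%), and 1775 genes were under 0.05 before adjustment. Of the 8, the difference (day 28 minus day 14) was positive for 7 and negative for 1. Without the arrays of high hair mean the change differed for 12 genes, positive for 4 and negative for 8, so the balance of directions turned. A call on 1 day alone does not show a difference between the days, and 1711 genes were called at day 28 and not at day 14.

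Of these 8 genes Ighg3 differed most, with a change of 3.08 ± 0.36 at day 28 and 0.21 ± 0.36 at day 14 (difference 2.87 ± 0.51, adjusted p = 0.0426). Mmp11, the stromelysin of remodelled stroma, differed by 2.79 ± 0.49 (adjusted p = 0.0426). Among genes of surface epithelium Nccrp1 stood at 2.28 ± 0.33, Sprr2k at 1.81 ± 0.12, Lce1g at 1.16 ± 0.14 and Cpa4, a carboxypeptidase, at 2.21 ± 0.36. Ywhaq, a 14-3-3 adaptor, was the gene with a negative difference (-0.54 ± 0.09), and it fell at day 28 (change -0.31). That fall was not called in the fit of 8 arrays alone, with array medians centred or with the mean of all its probe sets. Sprr2k, Nccrp1 and Lce1g stayed called with each day 28 array left out in turn. Ighg3 was called in 1 of these 8 fits, the fit without isotype replicate 3, with differences from 2.61 without isotype replicate 4 to 3.21 without isotype replicate 3, and its difference was 0.74 with the mean of all its probe sets. Mmp11 was not called without isotype replicate 1 (2.77) or 2 (2.63) or syngeneic replicate 1 (2.76), 2 (2.68) or 3 (2.72), and Cpa4 not without isotype replicate 1 (2.14) or syngeneic replicate 1 (2.17) or 2 (2.07). In the fit of the 16 arrays of these groups alone 1 gene, Sprr2k, was called. The count was 53 without isotype replicate 3, 16 without isotype replicate 2, and 3 without syngeneic replicate 1 or 2 of day 28. Mall, a membrane raft protein, differed by 1.61 ± 0.28, and among the fits with 1 array left out it was called without isotype replicate 3 (1.73) and without syngeneic replicate 3 (1.70). Ywhaq lost its call without isotype replicate 1 (-0.53) or 4 (-0.52) or syngeneic replicate 1 (-0.56) or 2 (-0.56). Its difference was also not called in other settings, among them array medians centred (-0.43) and the mean of all its probe sets (-0.89).

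Lists of the epidermis and of fat had the 2 widest gaps between days in their counts. Cornified envelope genes gave 21 rises at day 28 and 3 at day 14, with medians of 1.69 and 0.17, and the difference itself was called for 2 of the 33. Barrier enzymes gave 10 rises and 0. Adipocyte genes gave 14 falls and 2, and fatty acid genes 14 and 5, with no member called for the difference. Lists of other kinds had gaps too. Skeletal muscle genes gave 12 falls and 2, and neutrophil genes 14 rises and 7. Acute phase genes went the other way, with 2 rises at day 28 and 9 at day 14. No member of these lists was called for the difference either. Cd207 fell (change -3.39 ± 0.65) at day 28 and had a change of -0.40 ± 0.65 at day 14, which was not called, and the difference of -2.99 ± 0.92 was not called (adjusted p = 0.272). By contrast T cell receptor genes gave 15 rises at day 28 and 16 at day 14, and type I interferon-inducible genes 25 on both days.

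**Figure D5:**
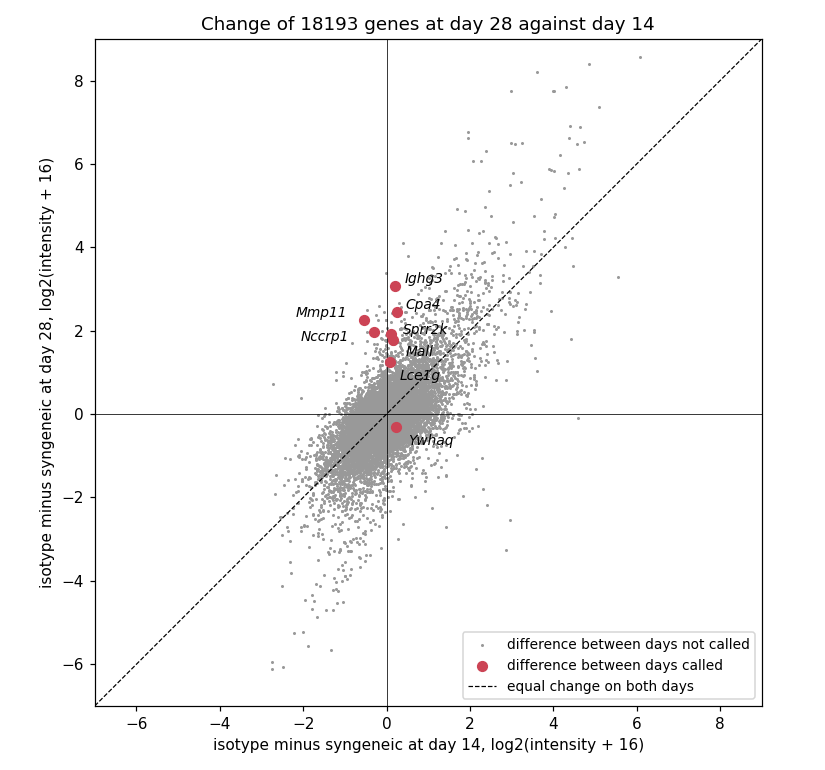
Change of every gene at day 14 (horizontal) and at day 28 (vertical), isotype minus syngeneic on the log2(intensity + 16) scale, with a dashed line for equal changes. The 8 labelled points are the genes whose change differed between the days, 7 of them above the line and Ywhaq below it.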

How the data were processed

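Skin RNA was labelled with biotin and hybridised to Affymetrix arrays, per the labels' protocols. The authors deposited linear intensities, 1 value per probe set and array, whose summarisation and normalization were not given in the sources used here. Intensities ran from 1.68 to 92640.3, the 8 arrays had medians from 16.05 to 17.33, and the number of arrays limits precision. Of 45101 probe sets, 34945 with 1 gene symbol in GEO's platform annotation were used, and 64 controls, 932 with several symbols and 9160 not listed were left out. Symbols were updated for 34741 and kept for 204. Each of 18193 genes took its probe set of highest mean. Of 1709 called genes with more probe sets, 466 had a second called the same way and 14 one called the other way. Promoter sequences came from RefSeq.

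Values were taken as log2(intensity + 16). A mean for each of 6 groups was fitted on all 24 arrays with limma 3.58.1 (R 4.3.3), with Benjamini-Hochberg adjustment and a threshold of 0.05, after the fit was tested on simulated data. The Gapdh ratio was tested by an exact permutation test.

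The genes named were drawn from the called genes without overlap that had the 20 largest rises or falls, up to 6 called members of each list in each direction and 4 not called, the 10 largest differences between days, and Rag1, Rag2, Ifnar1, Ifnar2 and Ifng. Others were named after their values were seen. The comparison and its 54 lists were chosen with earlier results of these data known. Alternatives were quantile normalization, centred medians, no dim genes, the mean of probe sets, array weights, a 2-fold minimum, a fit of the compared arrays alone, a robust prior with a trend, a replicate block, offsets of 1 and 64, covariates for Gapdh ratio, hair and muscle, each array left out, and, chosen after seeing the data, leaving out arrays with a Gapdh ratio above 4 or a hair shaft mean above 9.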

Additional observations from a re-analysis of the deposited data

Results flagged for a closer look

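Examined were 560 groups of 4 arrays, for 277 of the genes named, the means of the hair shaft and skeletal muscle lists and the Gapdh ratio. In 47 of these groups the highest or lowest array lay far from the other 3 relative to the range of the group (Dixon's criterion at 95%). Chance alone singles out about 1 in 20 groups. All values are on the log2(intensity + 16) scale, and no cause was tested.

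Isotype replicate 1 was lowest for Ctss at 14.29 (others 14.86 to 14.88), Ereg at 10.19 (others 11.22 to 11.38), Ifng at 7.25 (others 7.52 to 7.57) and Ighm at 10.85 (others 13.14 to 13.34). Isotype replicate 1 was also lowest for Pla2g7 at 9.11 (others 10.57 to 10.74) and Prdm1 at 8.22 (others 9.70 to 9.92). Isotype replicate 1 was highest for Foxp3 at 4.93 (others 4.42 to 4.43), Fpr2 at 10.88 (others 10.24 to 10.35), Krt31 at 6.81 (others 4.38 to 4.42) and Krt71 at 9.73 (others 4.45). Isotype replicate 1 was also highest for Krtap4-6 at 6.17 (others 4.26 to 4.28), Pax5 at 4.33 (others 4.30 to 4.31), Rag2 at 4.84 (others 4.59 to 4.62) and the mean of the hair shaft list at 7.34 (others 4.97 to 5.08). Isotype replicate 2 was lowest for Il1b at 8.99 (others 10.77 to 11.08) and Krt75 at 5.48 (others 7.53 to 7.75). Isotype replicate 2 was highest for Ldhb at 10.53 (others 9.94 to 9.96) and Oxtr at 5.77 (others 5.22 to 5.27). Isotype replicate 3 was highest for Sele at 5.42 (others 4.49 to 4.64). Isotype replicate 4 was lowest for Casq1 at 10.63 (others 11.97 to 12.08). Isotype replicate 4 was highest for Cyp2g1 at 6.40 (others 4.83 to 4.91) and Idi1 at 11.58 (others 10.48 to 10.67).

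Syngeneic replicate 1 was lowest for Cd207 at 7.70 (others 8.18 to 8.24), Icos at 4.55 (others 4.91 to 4.93) and Nkg7 at 4.34 (others 4.62 to 4.63). Syngeneic replicate 1 was highest for Chil3 at 4.70 (others 4.34 to 4.39), Cxcl2 at 6.67 (others 4.43 to 4.44), Mmp13 at 5.43 (others 4.48 to 4.51) and Oas3 at 4.48 (others 4.38 to 4.39). Syngeneic replicate 2 was lowest for Cd3d at 4.26 (others 4.40). Syngeneic replicate 2 was highest for Ido1 at 6.57 (others 4.39 to 4.59) and Ifit1 at 9.06 (others 7.39 to 7.63). Syngeneic replicate 3 was lowest for Pecam1 at 6.08 (others 8.02 to 8.21) and the mean of the skeletal muscle list at 13.37 (others 14.17 to 14.18). Syngeneic replicate 3 was highest for Derl3 at 4.50 (others 4.43 to 4.44), Lat at 5.56 (others 4.76 to 4.87), Pdcd1 at 4.76 (others 4.54 to 4.57) and Rag2 at 4.68 (others 4.59 to 4.60). Syngeneic replicate 3 was also highest for Tgm3 at 7.32 (others 4.41 to 4.87) and Ywhaq at 13.61 (others 13.24 to 13.30). Syngeneic replicate 4 was lowest for Hdc at 5.21 (others 6.42 to 6.65), Mzb1 at 4.29 (others 4.43 to 4.46) and Sprr2i at 4.35 (others 4.42 to 4.43). Syngeneic replicate 4 was highest for Epcam at 12.77 (others 11.67 to 11.85), Postn at 13.95 (others 12.67 to 12.85), Slpi at 5.74 (others 5.01 to 5.05) and Tnfrsf17 at 4.71 (others 4.34 to 4.36).

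The change between isotype and syngeneic skin differed between day 28 and day 14, by limma's test of that difference, for 8 genes. It was larger at day 28 by 2.87 for Ighg3, 2.79 for Mmp11, 2.28 for Nccrp1, 2.21 for Cpa4, 1.81 for Sprr2k, 1.61 for Mall and 1.16 for Lce1g, and for Ywhaq the difference was -0.54. Sprr2k, Nccrp1 and Lce1g were called with each day 28 array left out in turn.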

How the results depend on the processing

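The count of genes called at day 28, 2973, moved to 5638 with array weights, to 1155 with the skeletal muscle mean as a covariate and to 1662 with a 2-fold minimum. The 11 other settings of the fit that keep all 8 arrays gave between 2250 and 3827. With each day 28 array left out in turn the count ran from 2179 to 2882. Of 182 called genes named in the report and followed through the alternatives, 130 were called under every alternative. With each array left out 181 were, all but Krtap4-6. The muscle covariate took the call from 46 of them, and none turned direction in any alternative. Of 95 named genes not called and followed in the same way, 34 were called under at least 1 alternative and 12 with some array left out. Aldoa was called in 11 settings and Cxcl1 in 7.

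The count of genes whose change differed between the days, 8, was 1 with the arrays compared alone, 25 with quantile normalization, 26 with medians centred, 30 without the dimmest genes (12128 kept), 22 with the mean of all probe sets, 150 with array weights and 33 with the hair shaft covariate. It ran from 3 to 53 with 1 array left out, and was 2 without the arrays of high Gapdh ratio, an alternative chosen after seeing the data. The Gapdh 3'/5' difference of 0.19 ran from -0.49 to 0.79 with 1 array left out. The cause of these shifts was not tested.

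With the replicate number as a block 2704 genes were called at day 28 and 5 for the difference between days. The deviations of same-numbered arrays from their group means had correlations of 0.107, 0.0694, -0.243 and 0.0827. These values cannot show whether replicate numbers mark a shared day or batch, which the labels do not state. About 50% of probe sets lay below the offset of 16 on each array, where changes are understated.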

Other observations

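Some gene families, of which a few members also stand in the lists above, were counted as families. They were picked by symbol after the values were seen, so their counts are a description. Of 17 membrane-spanning 4A genes, which encode 4-pass surface proteins of blood cells, 7 rose and 0 fell at day 28. Ms4a4b, the member found in T cells, rose by 5.87 ± 0.50 (adjusted p = 1.26e-06 by limma), and Ms4a6d, a member of myeloid cells, rose by 3.27 ± 0.45, while the B cell member Ms4a1, at 0.00 ± 0.07, was not called. Of 8 Gimap genes, GTPases of lymphocytes, 6 rose, with Gimap3 at 2.31 ± 0.40 and a median of 1.04. Of 10 Schlafen genes, which interferons induce, 6 rose, with Slfn2 at 3.11 ± 0.31 and a median of 1.24. With the skeletal muscle mean as a covariate 5 Ms4a, 2 Gimap and 2 Schlafen genes were called.

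Among enzymes that detoxify, 11 of 20 glutathione S-transferase genes fell and 1 rose (median -0.68), and 7 fell without isotype replicate 4 or syngeneic replicate 2. Gstt1 fell by 1.46 on the log2 scale (SE 0.22), whereas Gsto1 rose by 1.64 ± 0.25. With array medians centred 8 of these 20 genes were called lower and 2 higher, and with the muscle covariate 1 lower and 2 higher. Of 20 aldehyde dehydrogenase genes 6 fell and 2 rose. Without isotype replicate 1 there were 2 falls, in the fit of the 8 arrays alone 3, and without syngeneic replicate 1, 2 or 3 there was 1 rise. Aldh1a7 was lower by -3.21 ± 0.48 and Aldh1a3, which makes retinoic acid, higher by 4.05 ± 0.87. Aldh1a3 was not called with the muscle covariate. Of 11 genes for making coenzyme Q, an electron carrier of mitochondria, 6 fell (median -0.56), but 3 were called without isotype replicate 1, 1 in the fit of the 8 arrays alone and 1 with the muscle covariate. Of 11 Frizzled genes, receptors for Wnt ligands, 4 fell and 0 rose, with Fzd2 at -1.68 ± 0.30 and Fzd3 at -1.88 ± 0.36. The directions of these medians were the same with quantile normalization and with array medians centred.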
